A study of Saccharomyces cerevisiae with 14 samples.

Results

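Regions between convergent genes are the stretches of DNA that separate 2 neighbouring genes transcribed towards each other, so that a stop codon lies on each side and no annotated promoter of a protein-coding gene lies within. They were found in the R64 annotation of the budding yeast genome as the gaps between neighbouring nuclear protein-coding genes with the left gene on the + strand and the right gene on the - strand. Of 1542 such pairs, 1279 regions of 100 to 1500 bp were kept. The others were 180 gaps shorter than 100 bp, 34 longer than 1500 bp, 27 pairs of overlapping or abutting genes, 19 pairs with a gene start in the outer 10 kb of a chromosome and 3 gaps into which another gene reached. All pairs of neighbouring genes together gave 5986 gaps, and 5212 of them passed the same filters: the 1279 convergent regions, 2578 tandem regions (1 promoter side and 1 stop side) and 1355 divergent regions (a promoter on each side).

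In yeast, transcripts of convergent genes are cleaved and polyadenylated in these regions, and RNA polymerase II leaves the template there, often close to or beyond the end of the opposing transcript. The DNA after a stop codon is AT-rich and has fewer or less well placed nucleosomes than the coding sequence before it. SWI/SNF is an ATP-dependent chromatin remodeller that slides and evicts nucleosomes. It is studied mostly at promoters, and Snf2 is its ATPase subunit.

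The study mapped nucleosomes in strain BY4741, grown in rich medium (YPD) at 30 °C, by crosslinking with formaldehyde, digestion with micrococcal nuclease (MNase) and sequencing of mononucleosomal DNA (MNase-seq). Its 14 samples are WT (3 samples), strains labelled dAT and dSnAC (3 samples each), CD (a catalytically dead Snf2 with the substitution K798A, 3 samples) and dSnf2 (2 samples). The deposited call lists merged the replicates of a strain: 3 for WT, 2 for dAT, 2 for dSnAC, 3 for CD and 2 for dSnf2. There is thus 1 list per strain, no spread between replicates and no test. Every difference below is given by its size, all 4 mutants are set against the same WT list, and a difference between strains cannot be told apart from one between the merged preparations.

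The lists held 31881933 reads (dSnAC) to 64981328 reads (WT), and the median call held 514 to 1030 reads. Occupancy is given on a scale where 1 is the median nuclear call of the same strain. Over the coding sequence of SNF2 the mean occupancy was 0.663 for WT, 0.796 for dAT, 0.731 for dSnAC, 0.732 for CD and 0.00559 for dSnf2. In dAT 1 call inside SNF2 held 1 read (dyad at position 855862 of chromosome XV), in dSnAC 1 call held 2 reads (dyad at 856118), and the lowest calls of WT and CD were 0.663 and 0.571. The lists thus carry a gap inside SNF2 in dAT and in dSnAC, at different places, and almost no SNF2 sequence in dSnf2.

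Convergent regions had a lower nucleosome occupancy than WT in all 4 mutants, most so in dAT and least so in dSnf2. The median region had an occupancy, averaged over its bases, of 0.732 for WT, 0.497 for dAT, 0.553 for dSnAC, 0.606 for CD and 0.670 for dSnf2. As a log2 ratio to WT, with 0.1 added to both values, the median was -0.45 for dAT (95% interval over regions -0.47 to -0.43), -0.34 for dSnAC (-0.36 to -0.33), -0.23 for CD (-0.23 to -0.22) and -0.11 for dSnf2 (-0.12 to -0.10). Occupancy was below WT in 94.4%, 92.4%, 89.9% and 78.4% of the 1279 regions, in that order. The SD of the ratio over regions was 0.35, 0.33, 0.28 and 0.30, larger than the counting error of a typical region, whose 95% half-width was 0.12, 0.13, 0.10 and 0.12. Medians were below 0 on 16 of 16 chromosomes in each mutant. In dAT they ran from -0.66 on chromosome I to -0.38 on chromosome XIV, and in dSnf2 from -0.16 on chromosome IX to -0.09 on chromosome X.

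The mutants also differed from each other. Set against each other directly, without WT, the median convergent region was lower in dAT than in dSnAC by a log2 ratio of -0.11, lower in dSnAC than in CD by -0.12, and lower in CD than in dSnf2 by -0.11. The first strain was the lower one in 83.1%, 84.0% and 84.4% of regions. Between the ends of this order, dAT and dSnf2, the median was -0.34 and dAT was lower in 92.0% of regions. The strain without Snf2 was thus the closest to WT, and the 2 strains with gaps inside SNF2 were the furthest. The lists held 39312292 reads for dAT, 31881933 for dSnAC, 59767406 for CD and 41240133 for dSnf2, and the part of depth in this order was not tested.

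**Figure D1:**
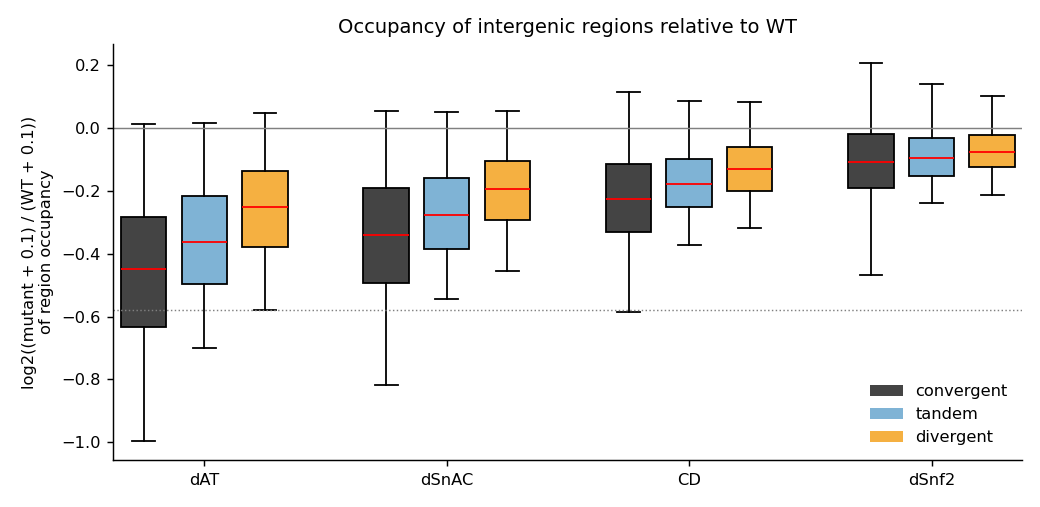
Log2 ratio of mutant to WT occupancy, with 0.1 added to both, for 1279 convergent, 2578 tandem and 1355 divergent regions in each mutant; boxes span the quartiles, red lines are medians, whiskers reach the 5th and 95th percentiles, and the dotted line marks -0.58. In each mutant the convergent median is the lowest of the 3 kinds of region, from -0.45 for dAT to -0.11 for dSnf2.

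The box plot of ratios by orientation sets the convergent regions beside the other intergenic regions. Tandem regions had medians of -0.36, -0.28, -0.18 and -0.09 for dAT, dSnAC, CD and dSnf2, and divergent regions had medians of -0.25, -0.19, -0.13 and -0.08. WT occupancy was similar in the 3 kinds, with medians of 0.732, 0.730 and 0.754. Convergent regions were lower than WT by 0.58 or more on the log2 scale (1.5-fold) in 396 cases in dAT, or 31.0%, against 16.0% of all 5212 intergenic regions. In dSnAC the count was 190 (14.9%, against 5.56% of all), in CD 67 (5.24%, against 1.53%) and in dSnf2 44 (3.44%, against 0.979%). These counts depend on the constant added, and with 0.25 in place of 0.1 they were 224, 94, 39 and 29. The shares of all intergenic regions with 0.25 are not given here. Few were higher by as much: 7 for dAT, 8 for dSnAC, 11 for CD and 17 for dSnf2, where 0.173%, 0.211%, 0.403% and 0.595% of all intergenic regions were. The shares of convergent regions past the limit were above those of all regions in both directions, and convergent regions are short (median length 246 bp, against 388 bp for tandem and 484 bp for divergent regions), so that each holds fewer calls. A mean of 1.56 WT dyads fell in a convergent region, 2.24 in a tandem and 2.50 in a divergent one.

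Because calls in a list never overlap (the smallest distance between neighbouring dyads was 148 bp in each list), a short region can hold a whole call more or less where the tiling around it differs. The number of calls was the same as in WT in 82.4% of convergent regions in dAT and in 84.8% (dSnAC), 85.6% (CD) and 86.2% (dSnf2) of them. Of the 396 regions that were lower in dAT, 307 had the same number of calls as in WT and 82 had fewer. In dSnf2 the proportions were the other way, with 11 of 44 at the same number and 33 with fewer. In CD 28 of 67 had the same number, and in dSnAC 130 of 190. Regions that were higher in dAT and dSnAC all had more calls than in WT (7 of 7 and 8 of 8), as did 10 of 11 for CD and 12 of 17 for dSnf2.

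The same comparison was therefore made call by call, between WT dyads in a convergent region and the dyads matched to them in a mutant. Of 1992 WT dyads in convergent regions, 1904 had a match in dAT, 1917 for dSnAC, 1919 for CD and 1907 for dSnf2. Matched calls had a median log2 occupancy ratio of -0.56 for dAT, -0.41 for dSnAC, -0.27 for CD and -0.12 for dSnf2, with quartiles of -0.82 and -0.32 for dAT and -0.21 and -0.03 for dSnf2. Calls were lower than WT by 0.58 or more in 48.1% of cases in dAT (9.96% of all matched nuclear calls), 29.4% for dSnAC (5.97% of all), 7.56% for CD (2.76% of all) and 1.68% for dSnf2 (1.66% of all). Calls higher by 0.58 or more numbered 6, 5, 4 and 6, where 3.12%, 1.45%, 0.792% and 0.760% of all matched nuclear calls were. The dSnf2 share of lower calls is thus that of the whole genome, although 80.4% of its calls in convergent regions were below WT.

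**Figure D2:**
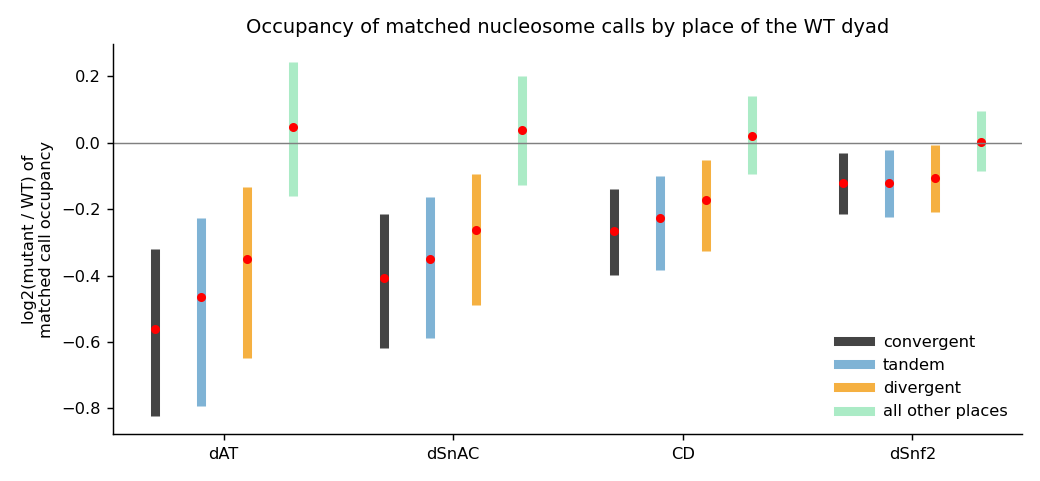
Log2 ratio of mutant to WT occupancy of matched nucleosome calls, by the place of the WT dyad; points are medians and bars span the quartiles. In dAT the median is -0.56 in convergent, -0.47 in tandem and -0.35 in divergent regions and 0.05 in all other places.

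The plot of matched calls by place shows that medians were lowest in convergent regions in dAT, dSnAC and CD, where tandem regions had -0.47, -0.35 and -0.23 and divergent regions -0.35, -0.26 and -0.17. In dSnf2 convergent and tandem regions both had -0.12 and divergent regions had -0.10. Tandem regions were taken whole here. On their stop side, calls 101 to 200 bp past the stop codon had -0.68, -0.52, -0.32 and -0.17 in the 4 mutants. Convergent calls at that distance were less low, at -0.62, -0.46, -0.28 and -0.12. At 1 to 100 bp the 2 kinds were close (-0.54 tandem and -0.55 convergent in dAT). At 201 to 750 bp convergent calls were the lower ones (-0.51 against -0.43 in dAT). Calls outside these regions, in genes and in gaps that did not pass the filters, had medians of 0.05, 0.04, 0.02 and 0.00. The tails of the distributions were ordered differently. Calls lower by 0.58 or more made up 39.4% of the tandem and 29.4% of the divergent calls in dAT, below the convergent 48.1%. In CD they were 12.1% and 14.5%, and in dSnf2 6.35% and 9.96%, above the convergent 7.56% and 1.68%. In those 2 mutants convergent calls were thus lower by a small amount in most places and seldom by a large one.

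The lower occupancy of the mutants began about 50 to 100 bp before the stop codon and was largest between 51 and 150 bp after it. In WT the mean occupancy per base was 0.823 to 0.861 from 500 to 101 bp before the stop codon, 0.895 and 0.888 in the next pair of 50 bp windows, 0.764 in the first 50 bp past the stop codon and 0.681 in the next 50 bp. Inside the genes, 101 bp or more before the stop codon, the log2 ratio to WT was between -0.04 and 0.03 in all 4 mutants. In the last 50 bp of the gene it was -0.22 for dAT, -0.17 for dSnAC, -0.11 for CD and -0.05 for dSnf2. In the first 50 bp past the stop codon it was -0.43, -0.33, -0.21 and -0.10. From 51 to 100 bp it was lowest in dAT (-0.58), CD (-0.30) and dSnf2 (-0.15), and in dSnAC, at -0.43, it was level with the next window. The mean occupancy there was 0.454 for dAT, 0.506 for dSnAC, 0.555 for CD and 0.612 for dSnf2.

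**Figure D3:**
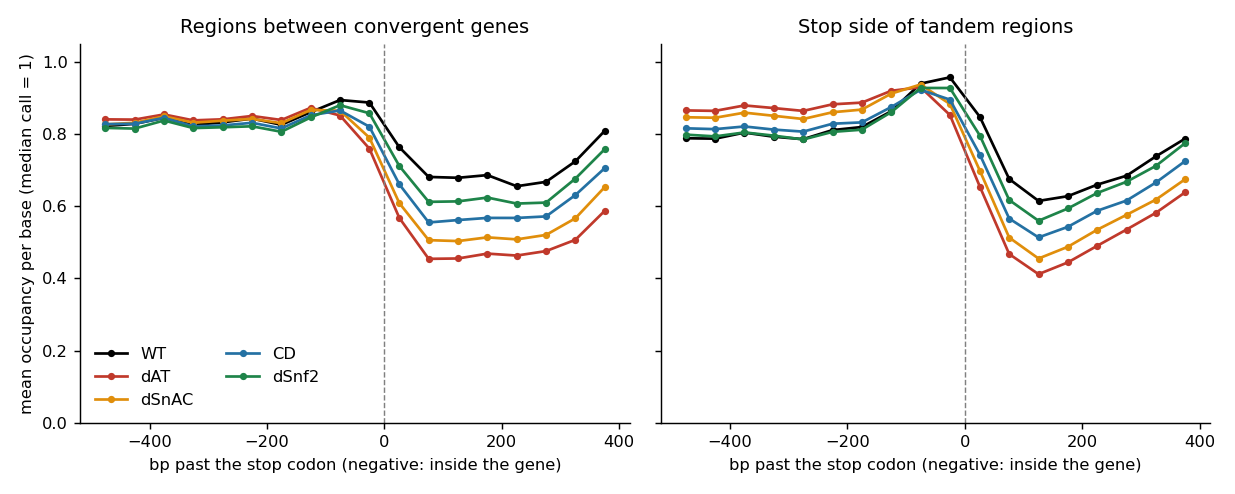
Mean occupancy per base (median call of the strain = 1) by distance from the stop codon in 50 bp windows, each base of a region being counted from its nearer stop codon; left, both sides of the 1279 convergent regions; right, the stop side of the 2578 tandem regions. The 5 strains run together inside the genes next to convergent regions and fan out past the stop codon, from 0.681 for WT to 0.454 for dAT at 51 to 100 bp.

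As the profile around stop codons shows, the ratio of convergent regions remained below 0 further from the stop codon, and was closer to 0 there than at its low point. At 201 to 250 bp the log2 ratio was -0.50, -0.37, -0.21 and -0.11 for dAT, dSnAC, CD and dSnf2, and at 401 to 750 bp, the middle of the longest regions, it was -0.39, -0.30, -0.21 and -0.10. The stop side of tandem regions had a similar low point, -0.58, -0.43, -0.26 and -0.14 at 101 to 150 bp, but the ratio was closer to 0 at 201 to 250 bp (-0.43, -0.30, -0.17 and -0.05) and at 401 to 750 bp (-0.25, -0.18, -0.08 and -0.00). Bases were taken up to the middle of a region, so the promoter side of tandem regions is not part of this profile. The genes differed too: 500 to 201 bp before the stop codon, genes ahead of a tandem region had ratios of 0.12 to 0.14 for dAT, and genes ahead of a convergent region had 0.01 to 0.03.

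Region length made little difference to the median below 600 bp, and the longest regions were somewhat nearer to WT. In length classes that start at 100, 200, 300, 400 and 600 bp, the last ending at 1500 bp, WT occupancy was 0.743, 0.725, 0.726, 0.740 and 0.723. The median ratio in dAT was -0.46, -0.44, -0.45, -0.45 and -0.39 in these classes, and in dSnf2 -0.11, -0.11, -0.11, -0.11 and -0.10. In dSnAC it was -0.33, -0.36, -0.35, -0.33 and -0.32, and in CD -0.24, -0.22, -0.23, -0.21 and -0.17. Large single differences did depend on length: 37.8% of the 463 regions under 200 bp were lower by 0.58 or more in dAT, and 21.4% of the 126 regions of 600 bp or more. In dSnf2 these shares were 6.26% and 0.79%. Tandem regions behaved differently at the short end, with a median of -0.27 for dAT for the 177 under 200 bp and -0.42 for those from 300 bp to under 400 bp.

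Regions next to the length limits had values like their neighbours. The 86 regions of 100 to 119 bp had a median of -0.46 for dAT and the 63 gaps of 80 to 99 bp, left out by the limit, -0.41. The 17 regions of 1300 to 1500 bp had -0.45 and the 7 gaps of 1501 to 1700 bp, left out, -0.65. With regions ranked by WT occupancy into 4 equal groups, the lowest group (0.586 or lower) had the ratios closest to 0, -0.36, -0.27, -0.17 and -0.06. The other 3 groups were at -0.45 to -0.50 for dAT and -0.11 to -0.13 for dSnf2. The added 0.1 weighs most where WT is low, and WT enters both the ranking and the ratio. This order can thus not be told apart from an effect of the measure. The median occupancies without the constant were 0.498 for WT and 0.338 for dAT in the lowest group, and 0.955 and 0.675 in the highest.

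Of the 1279 regions, 45 held another annotated gene, most often for a small structured RNA: 28 held a tRNA gene and 13 a snoRNA gene. tRNA genes are short units of RNA polymerase III with an internal promoter. The 28 regions with a tRNA gene had medians of -0.50, -0.39, -0.24 and -0.13 for dAT, dSnAC, CD and dSnf2, and the 13 with a snoRNA gene had -0.17, -0.13, -0.04 and -0.00. Intervals over regions for the snoRNA medians were -0.43 to 0.002, -0.36 to -0.03, -0.20 to 0.04 and -0.15 to 0.05. Many snoRNA genes of yeast have a promoter of their own, but its part in these values was not tested. The 1234 regions without another gene had -0.45, -0.34, -0.23 and -0.11. Their median length was 241 bp, against 947.5 bp with a tRNA gene and 876 bp with a snoRNA gene. All convergent regions of 600 to 1500 bp had -0.39, -0.32, -0.17 and -0.10. The region between YOR289W and SNF2 (chromosome XV, 854113 to 855146, with a tRNA gene) had 0.610 for WT, 0.334 for dAT, 0.392 for dSnAC, 0.452 for CD and 0.533 for dSnf2. It follows the order of the median region, next to the gene that was altered in these strains.

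A larger share of nucleosomes was displaced in convergent regions than over the whole genome. A matched dyad, the centre of a nucleosome, lay 20 bp or more from its WT place in 15.3% of cases in dAT (291 of 1904, against 9.19% of all matched nuclear dyads), 14.3% for dSnAC (275, against 8.67%), 11.6% for CD (222, against 8.84%) and 12.1% for dSnf2 (231, against 9.01%). Over the 4 mutants, tandem regions had 7.79% to 9.83% and divergent regions 7.42% to 9.31%. Most dyads lay close to their WT place: the median distance from the WT place was 4 bp for dAT and dSnAC and 3 bp for CD and dSnf2. WT dyads without a partner within 73 bp made up 4.42%, 3.77%, 3.66% and 4.27%, against 3.55%, 3.28%, 3.01% and 3.15% of all nuclear WT dyads.

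**Figure D4:**
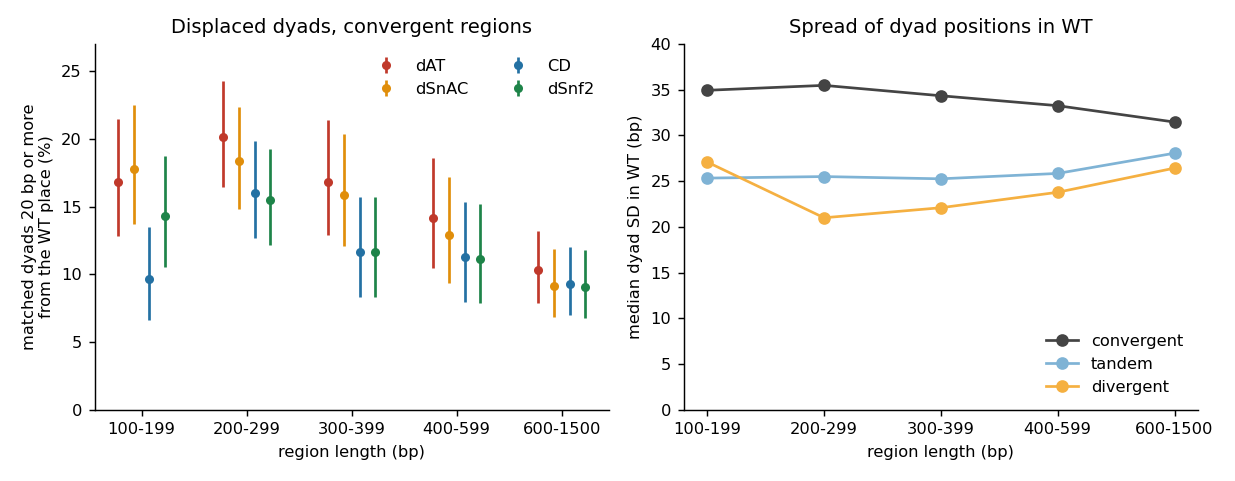
Left, percent of matched dyads in convergent regions that lay 20 bp or more from the WT place, by region length, with exact 95% binomial intervals (counting error only). Right, median SD of dyad positions in WT by region length for convergent, tandem and divergent regions; the share displaced is highest between 200 and 300 bp in dAT (20.1%), and the convergent SD is above the others in each length class.

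Displacement differed with length and with the place of the dyad. As the plot of displaced dyads by length shows, the share was not highest in the shortest regions. Under 200 bp it was 16.8% for dAT, 17.8% for dSnAC, 9.68% for CD and 14.3% for dSnf2. From 200 bp to under 300 bp it was 20.1%, 18.4%, 16.0% and 15.5%, and in regions of 600 to 1500 bp it was 10.3%, 9.14%, 9.29% and 9.04%. In CD the shortest regions were thus close to the longest. In these longest regions the convergent share was not above the others in each mutant: tandem regions had 12.2%, 11.04%, 10.1% and 9.51%, and divergent regions 11.1%, 10.2%, 8.68% and 8.35%. Dyads 1 to 100 bp past a stop codon were displaced in 16.9%, 16.6%, 12.3% and 14.0% of cases, and those 201 bp or more past it in 10.1%, 8.36%, 9.39% and 8.96%. The dyads were also less sharply placed to begin with: the SD of dyad positions in WT had a median of 33.8 bp in convergent regions, 26.7 bp in tandem, 25.1 bp in divergent regions and 30.4 bp elsewhere. This SD hardly differed in the mutants. Its median difference from WT over matched dyads was 0.17 bp for dAT, 0.17 bp for dSnAC, -0.23 bp for CD and -0.11 bp for dSnf2, beside 0.35, 0.24, -0.13 and -0.07 bp over all nuclear dyads.

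The widest gap between neighbouring dyads centred in a convergent region had a median of 195 bp for WT, 200 bp for dAT, 197 bp for dSnAC, 196 bp for CD and 198 bp for dSnf2. In WT it was 253 bp in tandem and 255 bp in divergent regions, which hold nucleosome-depleted promoters. Differences were taken only over regions with such a gap in both WT and the mutant, which were 1175, 1171, 1180 and 1182 convergent regions. Per convergent region the median difference was 3 bp for dAT, 2 bp for dSnAC and 1 bp for CD and dSnf2. The gap was wider by 20 bp or more in 18.0% of these convergent regions in dAT (11.3% of all such intergenic regions). The shares were 15.0% for dSnAC (9.76%), 12.5% for CD (8.02%) and 13.5% for dSnf2 (7.99%). It was narrower by as much in 12.4%, 12.0%, 11.4% and 10.5% (9.31%, 8.96%, 7.58% and 7.26% of all). Wider gaps outnumbered narrower ones in each mutant, and both were more frequent than over all regions.

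Among single regions, that between FIT2 and FIT3, which encode cell wall mannoproteins that retain siderophore-bound iron, had a low occupancy without any change in the number of calls. On chromosome XV from 1059993 to 1060440, it had an occupancy of 0.874 for WT, 0.289 for dAT, 0.567 for dSnAC, 0.627 for CD and 0.702 for dSnf2, with 2 calls in every strain. Its calls held 2743 reads in WT (exact 95% Poisson interval 2641 to 2848), 560 for dAT (515 to 608), 889 for dSnAC (832 to 949), 1830 for CD (1747 to 1916) and 1409 for dSnf2 (1336 to 1485). The log2 ratios of occupancy to WT were -1.33, -0.55, -0.42 and -0.28. The 2 matched calls were lower in dAT by ratios of -1.47 and -1.42, and the second of them lay 48 bp away from its WT place in dAT, 20 bp away in dSnAC and within 1 bp of it in CD and dSnf2.

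The region between UTP20, a factor of ribosome assembly, and HTA2, 1 of the 2 genes of histone H2A, had the lowest ratio to WT, in each mutant, of the 6 next to core histone genes. On chromosome II from 235118 to 235393, it had 0.806 for WT, 0.327 for dAT, 0.385 for dSnAC, 0.424 for CD and 0.484 for dSnf2, or log2 ratios of -1.08, -0.90, -0.79 and -0.63. It held 2 dyads in WT and 1 in every mutant. The WT dyad 20 bp past the stop codon of HTA2 was matched 52, 52, 48 and 52 bp away, inside HTA2, and the widest gap was 212 bp for WT and 274, 269, 266 and 264 bp in the mutants. The other 5 regions next to histone genes were less altered. CRF1/HTB1, next to an H2B gene, had 5 dyads in every strain and ratios of -0.46, -0.37, -0.28 and -0.10. HHT1/IPP1 and SIW14/HHT2, next to the genes of histone H3, had -0.33, -0.34, -0.16 and 0.07, and -0.18, -0.14, -0.02 and 0.01. HTB2/ECM15 was lower than WT in dAT (-0.29) and higher in dSnAC (0.34), and HHF2/KTR5, next to a gene of histone H4, was higher in dAT (0.52) with a call that WT lacked.

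Convergent regions of well-studied genes did not all follow the median. Downstream of CYC1, the gene of iso-1 cytochrome c whose terminator is used in many expression vectors, the region shared with UTR1 had 0.733 for WT and 0.812, 0.755, 0.794 and 0.769 in the mutants, above WT in all 4. Its only dyad stayed within 1 bp of its place. The matched call had log2 ratios of 0.15, 0.03, 0.13 and 0.07. The counting half-width of a typical region was 0.12, 0.13, 0.10 and 0.12, so these differences are small beside counting error, above all in dSnAC and dSnf2. The region between PGK1, the gene of phosphoglycerate kinase, and POL4 had 0.403 for WT and 0.169, 0.201, 0.292 and 0.341, or ratios of -0.90, -0.74, -0.36 and -0.19. Downstream of the actin gene ACT1 the values were 0.572 for WT and 0.377, 0.412, 0.448 and 0.404. Downstream of TDH3, the main gene of glyceraldehyde-3-phosphate dehydrogenase, they were 0.527 and 0.460, 0.500, 0.564 and 0.609, with 3 dyads in each strain. Next to ADH1, the main fermentative alcohol dehydrogenase, they were 0.422 and 0.279, 0.381, 0.437 and 0.530. TDH3 and ADH1 thus had dSnf2 values above WT, and PGK1 and ACT1 did not. CYC1 was above WT in dSnf2 by too little to be told apart from counting error.

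Several of the lowest ratios came from short regions without a call that WT had there. Between UTP23, a factor of ribosome assembly, and DNL4, the DNA ligase of non-homologous end joining (chromosome XV, 334357 to 334508), the occupancy was 0.905 for WT, 0.251 for dAT, 0.845 for dSnAC, 0.239 for CD and 0.255 for dSnf2. WT and dSnAC had 1 call there and the others had none. Between SLX5, a subunit of a SUMO-targeted ubiquitin ligase, and YDL012C the occupancy was 0.876 for WT, 0.282, 0.290 and 0.336 for dAT, dSnAC and CD, and 0.801 for dSnf2. Between MGA2, an activator of fatty acid desaturation, and LYS1, the last enzyme of lysine synthesis, it was 0.838 for WT, 0.557 for dSnAC and 0.602 for CD, and 0.114 and 0.122 for dAT and dSnf2, where the call was missing. These strains do not group by their place in the median order. In the region between GPC1 and CCM1, singled out after its values were seen, occupancy was 0.921 for WT and 0 in all 4 mutants, and the gap between the dyads around it was 287 to 291 bp in the mutants.

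**Figure D5:**
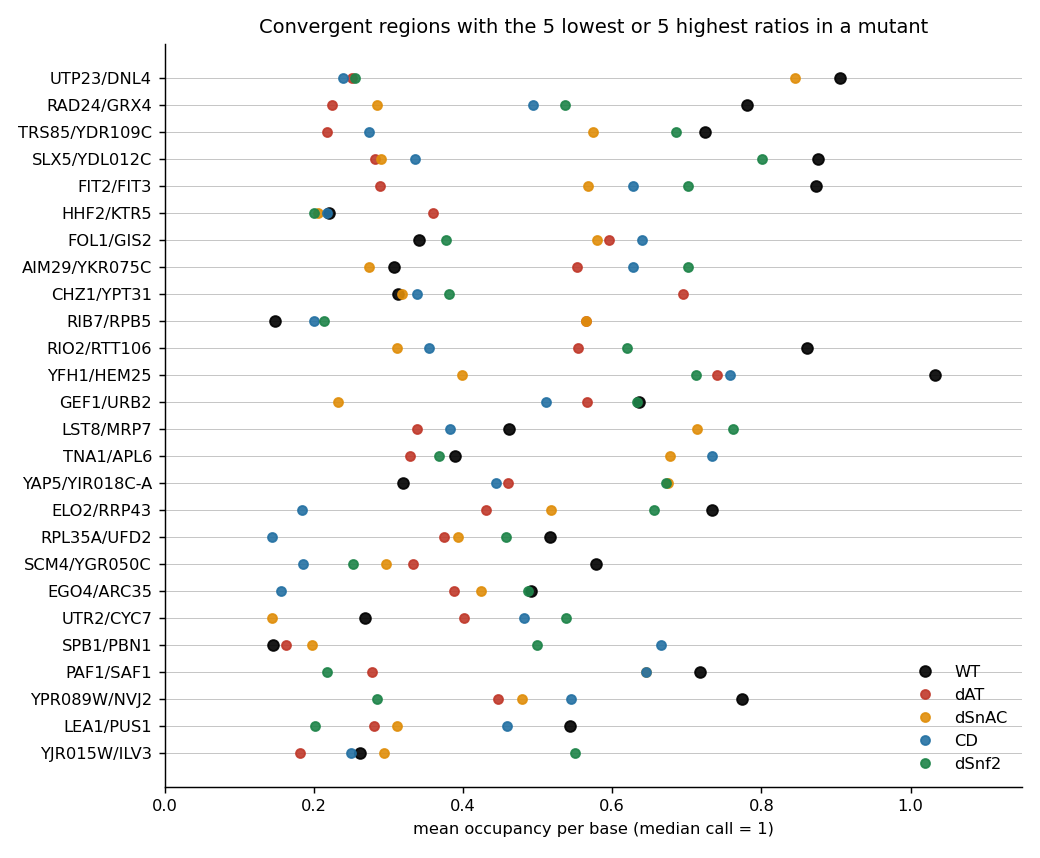
Mean occupancy per base (median call of the strain = 1) in the 5 strains for the convergent regions with the 5 lowest or 5 highest ratios in any mutant, among regions of at least 150 bp. Low mutant values next to a high WT value, as in UTP23/DNL4 (0.905 for WT, 0.251 for dAT), and high ones next to a low WT value, as in RIB7/RPB5 (0.148 for WT, 0.564 for dAT), occur in some mutants and not in others.

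The highest ratios were the mirror image of this, as the plot of extreme regions shows. Between RIB7, an enzyme of riboflavin synthesis, and RPB5, a subunit shared by the RNA polymerases, occupancy was 0.148 for WT, 0.564 for dAT and 0.565 for dSnAC, each with a call that WT lacked, and 0.200 and 0.213 for CD and dSnf2. Between SPB1, a methyltransferase of ribosome assembly, and PBN1 it was 0.145 for WT, 0.163 for dAT, 0.197 for dSnAC, 0.665 for CD and 0.500 for dSnf2. Between FOL1, an enzyme of folate synthesis, and GIS2 it was 0.341 for WT and 0.596, 0.579 and 0.640 for dAT, dSnAC and CD, with 2 calls in place of 1, and 0.377 for dSnf2.

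Some dyads lay at a new place in all 4 mutants. Of 1828 WT dyads matched in all 4, 82 in 78 regions, or 4.49%, were displaced by 20 bp or more in the same direction in each, against 2.59% of all nuclear WT dyads matched in all 4. In 35 of the 82 the direction was that of transcription of the nearer gene. All 4 values share the WT place. Between MET13, a methylenetetrahydrofolate reductase, and MON1, a factor of vacuole fusion, both WT dyads were displaced. The first lay 71, 70, 70 and 70 bp from its WT place in dAT, dSnAC, CD and dSnf2, and the second 22, 21, 21 and 21 bp. Between RSC4, a subunit of the remodeller RSC, and FOX2, an enzyme of peroxisomal fatty acid oxidation, 1 dyad was displaced by -67, -67, -66 and -64 bp. Its occupancy was lower by ratios of -1.23, -0.59, -0.63 and -0.35. The other WT dyad of that region stayed within 6 bp of its place in every mutant. Between the ribosomal protein gene RPS18A and YHP1, a transcriptional repressor, both WT dyads were displaced, by 61 to 64 bp and 64 to 71 bp, and the occupancy of the region was 0.691 for WT and 0.381, 0.414, 0.475 and 0.486 in the mutants. A displacement of about 70 bp is close to the 73 bp within which partners were sought. In such a case a moved nucleosome cannot be told apart from the loss of one and the appearance of another.

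The largest differences in the spread of dyad positions went both ways. At the dyad 25 bp past the stop codon of TDH2, in the region shared with MHO1, the SD was 42.9 bp for WT and 30.3, 30.8, 27.6 and 28.3 bp for dAT, dSnAC, CD and dSnf2, at a place 56 to 70 bp away. At the dyad 12 bp past a stop codon between CAR1, the arginase gene, and GDE1, it was 39.0 bp for WT and 30.2, 29.8, 28.2 and 29.5 bp, within 8 bp of its place. The occupancy of CAR1/GDE1 was 0.499 for WT and 0.581, 0.635, 0.683 and 0.810 in the mutants, above WT in all 4. Between CHS5, a factor of chitin synthase export, and JIP3 a dyad with an SD of 26.3 bp for WT had 39.7, 36.1, 38.8 and 38.6 bp. Its partners lay -13, -12, 44 and 46 bp from the WT place, so those of CD and dSnf2 were on the other side of it.

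Regions were also grouped by the function of their flanking genes, to be read against all convergent regions, of which 31.0%, 14.9%, 5.24% and 3.44% were lower by 0.58 or more in dAT, dSnAC, CD and dSnf2. Of 68 regions next to a cytosolic ribosomal protein gene, 17 were lower than WT by 0.58 or more in dAT, 9 for dSnAC, 2 for CD and 1 for dSnf2, with medians of -0.44, -0.32, -0.19 and -0.05. Their shares, 25%, 13.2%, 2.94% and 1.47%, were near or below those of all convergent regions. Single regions given for a list, here and below, were picked for its largest average absolute ratios, so they are extremes and not typical members. For this list, the region between SUB2, an RNA helicase of mRNA export, and RPS16B had 0.695 for WT. It had 0.274, 0.293, 0.422 and 0.391 in the mutants. Of 37 next to mitochondrial ribosomal protein genes, 17, 7, 0 and 1 were lower by as much (45.9%, 18.9%, 0% and 2.70%, so above the share of all convergent regions in dAT and dSnAC and below it in CD and dSnf2), with medians of -0.55, -0.43, -0.24 and -0.13. Picked in the same way, MRPL33/DSS1 had 0.919 for WT and 0.465, 0.555, 0.673 and 0.783 in the mutants, with 1 call in each strain. The first list was close to all convergent regions (-0.45 for dAT) and the second lower in dAT and dSnAC; neither difference was tested.

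Of 15 regions next to amino acid synthesis genes under Gcn4, the activator of the response to amino acid starvation, 8, 3, 2 and 1 were lower by 0.58 or more, with medians of -0.66, -0.41, -0.28 and -0.14. The shares were 53.3%, 20.0%, 13.3% and 6.67%, each above that of all convergent regions, from 15 regions and untested. Beside MGA2/LYS1, they include ARO3/EHD3, next to a first enzyme of aromatic amino acid synthesis, with 0.640 for WT and 0.306, 0.301, 0.376 and 0.569 in the mutants, and TRP2/MET6, with 0.694 and 0.340, 0.409, 0.411 and 0.482. Of 10 regions next to genes of the iron regulon, 3 were lower by as much in dAT (30.0%, near the 31.0% of all convergent regions) and 0 in the other mutants, with medians of -0.41, -0.30, -0.23 and -0.11. Besides FIT2/FIT3 these were FTH1/DUR12 and NUM1/CTH1; the latter, next to a gene whose protein promotes the decay of mRNAs of iron-using enzymes, had 0.880 for WT and 0.456, 0.596, 0.660 and 0.783 in the mutants.

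Of 11 regions next to genes of glycolysis and fermentation, 3, 3, 0 and 0 were lower by 0.58 or more (27.3% in dAT, near the 31.0% of all convergent regions, and 27.3% in dSnAC, against 14.9%), with medians of -0.46, -0.35, -0.19 and -0.08. VMS1/TPI1, next to the gene of triose phosphate isomerase, had 0.846 for WT and 0.429, 0.500, 0.626 and 0.715 in the mutants, with 3 dyads in each strain. Of 12 next to heat shock and chaperone genes, 3, 1, 2 and 1 were lower by as much, with medians of -0.31, -0.21, -0.11 and -0.04. The shares were 25%, 8.33%, 16.7% and 8.33%, below that of all convergent regions in dAT and dSnAC and, from 2 regions and 1 region, above it in CD and dSnf2. PAU17/SSA2, next to an Hsp70 gene and among the largest average ratios of its list, had 0.564 for WT and 0.217, 0.325, 0.291 and 0.319. The 6 regions next to core histone genes had medians of -0.31, -0.24, -0.17 and -0.07, and 1 of them, UTP20/HTA2, was lower by 0.58 or more in each mutant (16.7%, from a single region).

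Of 8 regions next to genes of cleavage, polyadenylation and termination factors, 3 were lower by 0.58 or more in dAT (37.5%, against 31.0% of all convergent regions) and 0 in the other mutants, with medians of -0.49, -0.41, -0.31 and -0.09. HRP1/SMF1, next to the gene of a cleavage factor subunit, had 0.986 for WT and 0.603, 0.703, 0.765 and 0.930 in the mutants. Its 2 dyads differed: that 71 bp past the nearer stop codon had a ratio of -1.35 for dAT and that 6 bp past the other had -0.25, and both stayed within 3 bp of their places in every mutant. Lists of 6 to 15 regions are small, and all medians of the 8 lists were below 0 in all 4 mutants, as was that of all convergent regions.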

How the data were processed

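Mononucleosomal DNA was sequenced without PCR, per the labels' protocols. Reads were aligned with Bowtie and the genome build is sacCer3, per the submitters' processing notes. The nucleosome caller, with its filters and scaling, was one thing not given in the sources used here. Per the labels, the authors deposited 1 list of nucleosome calls per strain, made on merged replicates, with an occupancy per call that is a coverage signal. Positions and the SDs of dyad positions are in bp, per the file headers; whether positions count from 0 or 1 was not given, so they may be off by 1 bp. The deposited fraction of conditional position was not used. All occupancies were whole multiples of the smallest one in the list within 0.01 (100% of calls), and this step was taken as 1 read. Intervals of reads, shares and single ratios cover counting error only, and intervals of medians cover only the spread of regions.

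Occupancy was divided by the median nuclear call outside the ribosomal DNA, laid over 147 bp around each dyad (73 bp to each side) and averaged over the bases of a region. Gene positions, names and other genes came from NCBI's R64 table, with strand from W or C in the systematic name; 5889 of 6002 genes started outside the outer 10 kb. Ratios are log2((mutant + 0.1) / (WT + 0.1)). WT and mutant dyads were paired as mutual nearest neighbours within 73 bp; ratios of matched calls used no added constant. The scripts were tested on simulated data and ran on Python 3.11.15, numpy 2.4.6, pandas 2.3.3 and scipy 1.17.1. Samples were grouped by label, and each mutant was compared with WT without a test, since there was 1 list per strain.

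The members, gene lists and rules were chosen with earlier results of these data known. Regions named in the text were the 5 lowest and 5 highest ratios per mutant (at least 150 bp, mean of WT and mutant at least 0.25). Those next to well-studied and histone genes, those with the widest WT gaps, and dyads displaced or with an altered SD in all 4 mutants were named too. From each gene list, up to 4 regions with the largest average absolute ratio were named. Alternatives covered the pseudocount, weak calls, footprint, scaling, size limit, region length, other genes, the ends of regions and the matching limit; 3 more were chosen after seeing the data. No sequence of the regions was used here.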

Additional observations from a re-analysis of the deposited data

How the results depend on the processing

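Values are in the order dAT, dSnAC, CD and dSnf2. With 0.25 added in place of 0.1, medians were -0.37, -0.28, -0.19 and -0.091, regions lower by 0.58 or more numbered 224, 94, 39 and 29, and those higher 4, 5 and 7 in the first 3 mutants. Relative to the median of all intergenic regions, medians were -0.10, -0.074, -0.053 and -0.016, lower regions 87, 55 and 35 in the first 3, and higher ones 16 in dAT and 16 in dSnAC. At a 2-fold limit, 63, 30, 18 and 16 regions were lower and 3, 3, 2 and 4 higher. In regions of 200 to 1500 bp, with the 463 shorter regions left out, 221, 88, 29 and 15 were lower and 1, 3, 2 and 3 higher. Without 73 bp next to each stop codon, medians were -0.49, -0.37, -0.24 and -0.12, and 18 regions were higher in dSnAC. In alternatives chosen after seeing the data, matched calls alone gave -0.56, -0.41, -0.27 and -0.12. Regions with the same number of calls as WT gave 28 lower in CD and 11 in dSnf2, and 0, 0, 0 and 4 higher. Without 7 regions between transposon frames and those below 0.25 in WT, 4, 4 and 7 were higher in dAT, dSnAC and CD. Shares of all intergenic regions at these alternative settings are not given here. The counts of regions thus do not show whether convergent shares stayed above those of all regions. Displaced dyads made up 9.33%, 9.03%, 6.66% and 7.51% with partners sought within 40 bp (5.79%, 5.37%, 5.31% and 5.37% of all nuclear dyads), and 28.4%, 27.1%, 21.3% and 21.3% at a limit of 10 bp (19.1%, 17.6%, 16.1% and 15.8% of all). The SD difference over all calls, not matched ones, was -0.25, -0.21, -0.40 and -0.29 bp, so its sign in dAT and dSnAC turned. The cause of these differences was not tested, beyond the fewer regions, wider limit or added constant that define them. The other 114 values, among them every one for weak calls, the deposited footprint, scaling by the mean per base, regions without other genes, and gaps, kept their direction, except the median gap difference of CD, 0 in place of 1 bp in regions of 200 to 1500 bp, and stayed within the spread of regions or within 1.5 times the count. All 4 medians stayed below 0 throughout. No paired analysis was possible because each strain has 1 merged list. For the same reason no replicate could be left out. A region's ratio has a median counting half-width of 0.10 to 0.13, which limits statements on single regions in dSnf2 most.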

Other observations

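Several regions were not covered by any call in any strain. Occupancy was built from calls alone, so a value of 0 does not show that reads were absent. Of the 1279 convergent regions 5 were at 0 in all 5 strains: YDR365W-B/MOR1, VTH1/IMA3, VTH2/IMA4, UCC1/YLR225C and YOL155W-A/HPF1. VTH1 and VTH2, and IMA3 and IMA4, are pairs of near-identical genes, and YDR365W-B is a transposon frame, and the treatment of reads that align to several places was not analysed here. The widest WT gap, 2809 bp, lay in YOL155W-A/HPF1. The next widest were 823 bp in YOL162W/PAU20, 501 bp in YAL064W/YAL063C-A, 452 bp in DSF1/HXT13 and 398 bp in YDR261W-B/YDR261C-D. All but the last are near chromosome ends. YOL162W/PAU20 had 0.499 for WT and 0.304, 0.355, 0.409 and 0.428 for dAT, dSnAC, CD and dSnf2, with 2 calls in every strain.

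Mutant dyads in convergent regions without a WT partner made up 4.26% for dAT, 4.25% for dSnAC, 3.51% for CD and 3.39% for dSnf2. In tandem regions the shares were 3.82%, 3.28%, 2.54% and 2.25%, and in divergent regions 3.34%, 3.02%, 2.47% and 2.08%. Outside these regions they were 3.52%, 3.23%, 3.43% and 3.30%, so that the convergent shares of CD and dSnf2 were close to those of the rest of the genome. By the number of WT dyads in a region, the 163 regions with none had median ratios of -0.30, -0.21, -0.15 and -0.05, and the 622 with 1 had -0.47, -0.36, -0.23 and -0.11. The 171 regions with 3 or more had -0.43, -0.33, -0.19 and -0.11. The cause of these differences was not tested.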
